A study of Mus musculus with 6 samples.

Results

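The genes described here, 9 in number, belong to glutamate and amino acid transport, and were followed in bone marrow-derived macrophages (BMDMs) that lacked or kept PKM2, the M2 isoform of the glycolytic enzyme pyruvate kinase. They were the glutamate transporter gene Slc1a3, the neutral amino acid transporter genes Slc1a5, Slc38a1 and Slc38a2, the light chain genes Slc7a11 and Slc7a5, the cationic amino acid transporter gene Slc7a2, the heavy chain gene Slc3a2 and the glutamine synthetase gene Glul. All 9 were found by symbol among the 23935 symbols of the tables, and all 9 passed the filter on low counts that left 16516 genes for testing. Slc1a3 was selected on its rise in the comparison described here, where it ranked 10 by rise among genes that passed the test at a mean of at least 1 CPM and without overlap between the genotypes, so its difference between the genotypes is described and carries no p-value. The other 8 were chosen as its functional relatives.

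PKM2ΔMAC mice carried the floxed Pkm2 allele together with LysM-Cre, in which Cre is expressed from the Lyz2 locus of myeloid cells, and PKM2FL/FL littermates carried the floxed allele without Cre. Bone marrow of both was grown for 7 days in M-CSF, which drives macrophage differentiation, and then primed for 16 h with 10 ng/mL LPS, a bacterial outer membrane component, and 25 ng/mL IFN-γ. The study names male mice for BMDMs of its flow cytometry, and the age and sex of the mice behind the sequenced cultures are not stated in the sources used here. RNA sequencing gave 3 libraries per genotype, which differ in the mouse number of their labels.

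Glutamate, glutamine, cystine and arginine enter macrophages through transporters with separate tasks. Slc1a3 encodes a sodium-driven glutamate and aspartate transporter, best known from astrocytes, where it clears glutamate around synapses. Slc1a5 and the Slc38 proteins import glutamine and other neutral amino acids and Glul makes glutamine from glutamate and ammonia. The Slc7a11 protein exports glutamate in exchange for cystine, the source of cysteine for glutathione, and the Slc7a5 protein exchanges glutamine for leucine. Both work only as partners of the Slc3a2 heavy chain. Slc7a2 imports arginine, the substrate of the nitric oxide synthase Nos2.

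Total counts were between 49957449 and 54524651 per library. Levels are given as CPM, the counts of a gene brought to a common library total and scaled by TMM (a factor that aligns the bulk of the genes between libraries), or, where genes are compared with each other, as TPM, which also divides by gene length. TPM is not scaled by TMM, and Lyz2 alone averaged 47420 TPM in PKM2FL/FL but 79.4 TPM in PKM2ΔMAC. Differences between genotypes are therefore read from log2 fold changes fitted to the counts. Pkm, the targeted gene, whose reads were not separated by isoform, was at 1714, 1698 and 1706 CPM in PKM2FL/FL and at 987, 1212 and 1005 CPM in PKM2ΔMAC replicates 1 to 3. Lyz2, the gene that hosts Cre, was at between 17006 and 18721 CPM in PKM2FL/FL and at between 24.3 and 31.8 CPM in PKM2ΔMAC. Cre, low Lyz2 and the loss of PKM2 came together in PKM2ΔMAC, so their effects cannot be told apart here. The 9 macrophage markers other than Lyz2 summed to between 8068 and 8346 CPM in PKM2FL/FL and to between 8178 and 8857 CPM in PKM2ΔMAC libraries. The 14 markers of LPS and IFN-γ priming summed to between 234 and 258 CPM in PKM2FL/FL and to between 237 and 292 CPM in PKM2ΔMAC. They ranged widely, with Irf1 at between 53.6 and 56.8 CPM and Tnf at between 10.96 and 19.5 CPM but Il1b at 2.95 CPM or less, Cxcl9 at 0.911 or less, Nos2 at 0.490 or less, Il6 at 0.328 or less and Il12b at 0.112 or less. Priming is thus given here as labelled, since defining markers of the response were near 0 in all 6 libraries and no unprimed library was analysed here to set beside them. Stromal markers were present throughout, with a sum between 5623 and 7141 CPM that came mostly from Col1a1 and Col1a2. Neutrophil markers summed to between 20.3 and 48.8 CPM in PKM2FL/FL and to between 90.1 and 170.0 CPM in PKM2ΔMAC, where 8 of 8 tested were higher and 0 passed the test, and their part in the results was not tested. Markers of B cells summed to between 39.4 and 55.2 CPM, and those of T and NK cells, dendritic cells, mast cells and erythroid cells to 8.56 CPM or less each. PKM2ΔMAC replicate 2 stood apart from its group, since the chi-square of its counts against those of replicates 1 and 3, divided by its degrees of freedom, was 43.1 and 53.8, against 10.1 between replicates 1 and 3 and 7.55 to 13.7 within PKM2FL/FL. Transcripts of neurons and glia were present in PKM2ΔMAC replicates 1 and 2 and at or near 0 in most cases in the other 4 libraries, as described with Slc1a3. In bulk RNA, fewer cells of a type and less RNA per cell cannot be told apart.

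Slc1a3 had few counts in PKM2FL/FL and several times more in every PKM2ΔMAC library. The counts were 61, 50 and 62 in PKM2FL/FL replicates 1 to 3 and 251, 323 and 164 in PKM2ΔMAC replicates 1 to 3. As CPM these were 1.14, 0.96 and 1.22 against 4.73, 5.88 and 3.30. The genotypes did not overlap, and PKM2ΔMAC replicate 3 was the lowest of its group. The exact 95% Poisson interval of its 3.30 CPM, from 2.82 to 3.85, covers counting error only. The mean rose from 1.11 ± 0.132 to 4.64 ± 1.29 CPM (SD, n = 3 for each genotype), which is 4.18-fold or 2.06 on the log2 scale (SE 0.24). Within the ranking by rise, which had the limits given above for rank 10, the gene just above it was Ppp1r14c at 2.07 and the first past the 10 was Xkr6 at 1.90. With no such limit on the test, Slc1a3 was number 19 of 13077 tested genes of that mean, and 47 of all tested genes, itself included, had a log2 fold change at least as large. The values of the other members are set beside it in the plot of CPM by library.

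**Figure D1:**
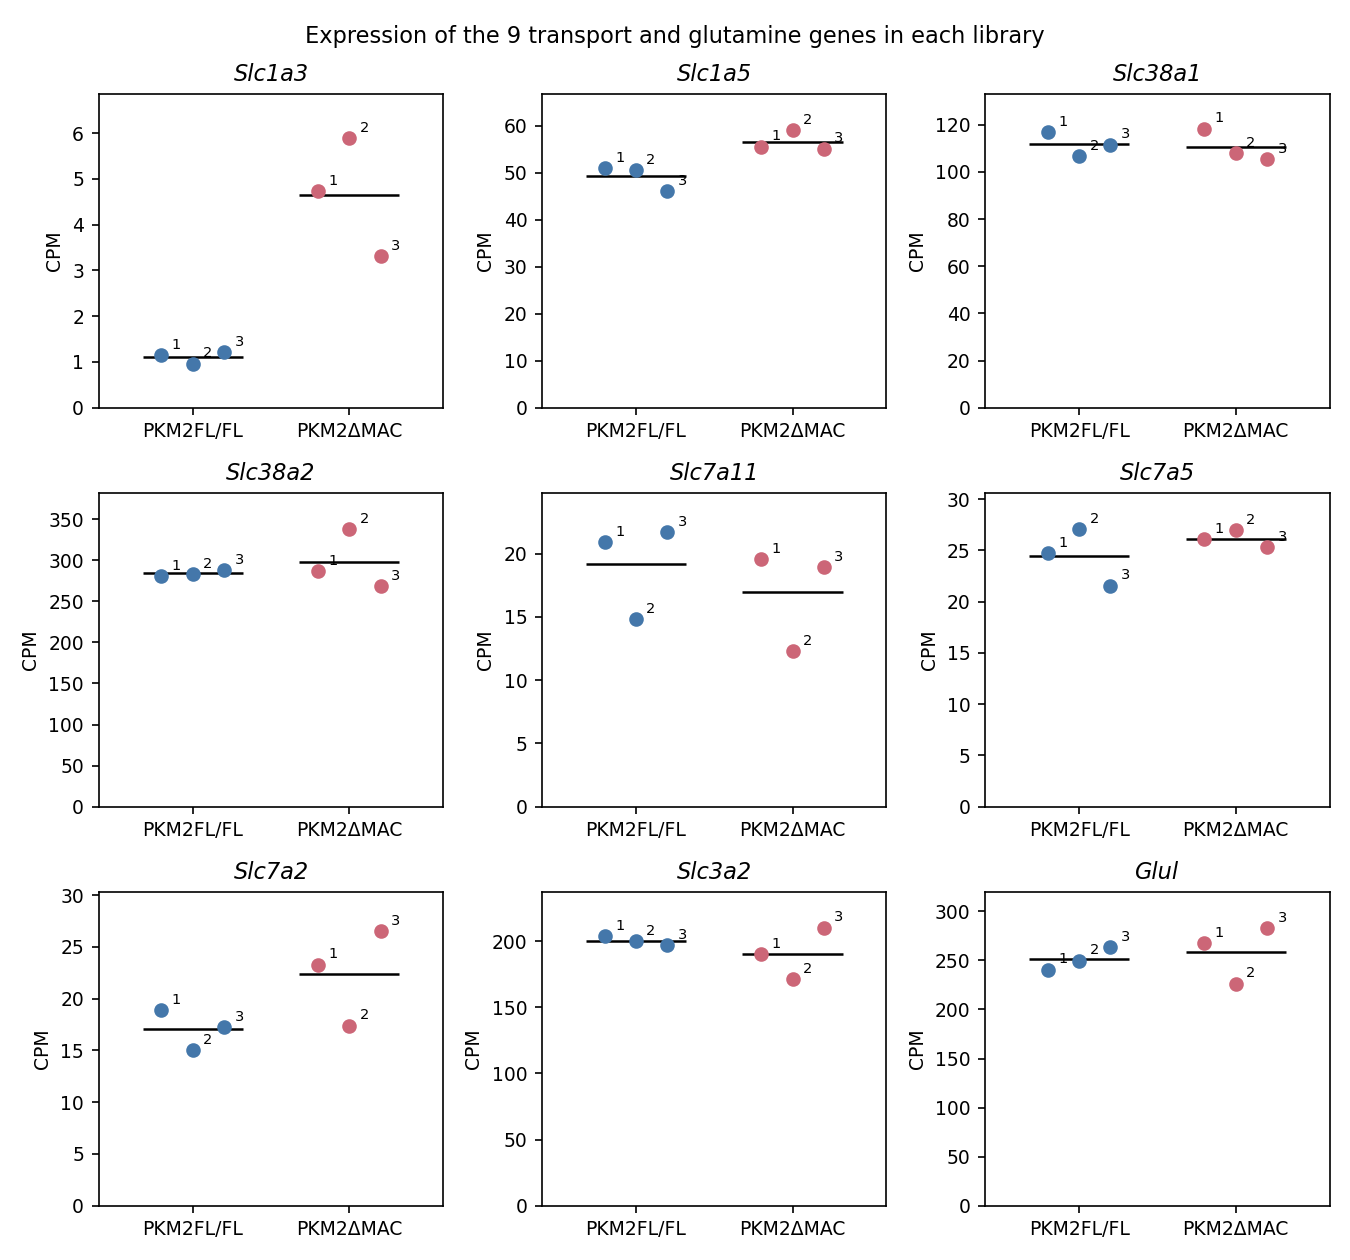
CPM of the 9 genes (vertical axes, each starting at 0) in the 3 PKM2FL/FL libraries (blue) and the 3 PKM2ΔMAC libraries (red), with the replicate number beside each point and a bar at the mean of each genotype. Slc1a3 lay between 0.96 and 1.22 CPM in PKM2FL/FL and between 3.30 and 5.88 CPM in PKM2ΔMAC, Slc1a5 was also higher in each PKM2ΔMAC library, and the points of the other 7 genes overlapped.

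Slc1a3 spans chr15:8634124-8710764 on the minus strand of GRCm38 (GENCODE M21 annotation), with up to 10 exons in a transcript. A single annotated gene overlaps it on the same strand, Gm37310, which had 2 counts or fewer in each library. The 300 bases around its RefSeq start (GRCm38.p6, chr15:8710758-8711057, minus strand) are shown because the cells are labelled as primed with IFN-γ. Target genes of IFN-γ are known to carry gamma-activated sites, and 1 match to such a site lies here. Capitals mark the match to TTCNNNGAA, a pattern that reads the same on both strands, and its first base lies 96 bases before the start.

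Slc1a3 promoter: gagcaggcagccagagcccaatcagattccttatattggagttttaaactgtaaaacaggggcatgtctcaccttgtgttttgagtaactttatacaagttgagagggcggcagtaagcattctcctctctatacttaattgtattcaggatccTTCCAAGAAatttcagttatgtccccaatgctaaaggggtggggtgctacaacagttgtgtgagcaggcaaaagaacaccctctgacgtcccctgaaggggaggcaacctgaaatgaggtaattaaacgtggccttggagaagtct

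A match to TTCNNNGAA occurs in 8.30% of the 32851 promoter windows of that length, and none of the other patterns searched, TGATGNAA (the core that ATF4 binds in amino acid response genes, 3.97% of windows), TGACNNNGC (the antioxidant response core, 12.4%) and CACGTG (the E-box, 7.15%), was found in the Slc1a3 window on either strand.

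PKM2ΔMAC replicates 1 and 2 also held transcripts known from brain cells, and Slc1a3 is itself an astrocyte gene. Gfap, the intermediate filament of astrocytes, had 3, 6 and 4 counts in PKM2FL/FL replicates 1 to 3 and 186, 247 and 0 counts in PKM2ΔMAC replicates 1 to 3. Slc1a2, the main astrocyte glutamate transporter and the closest functional relative of Slc1a3 here, had 5, 13 and 13 against 87, 118 and 8 counts. Snap25, a presynaptic protein of neurons, had 0, 0 and 1 against 78, 69 and 0 counts. These genes were therefore high in PKM2ΔMAC replicates 1 and 2 and at PKM2FL/FL level or at 0 in replicate 3. Of the marker lists, which were written after these transcripts had been seen, 8 of 9 neuron genes, 5 of 6 astrocyte genes and 2 of 5 oligodendrocyte genes were higher in both of these libraries than in any of the other 4. A broader list of astrocytes and glia, written earlier, had 3 of 7 genes higher in both, and its sum, carried by Gja1, was at between 157 and 179 CPM in PKM2FL/FL and at 230.2, 143 and 288 CPM in PKM2ΔMAC. Summed markers of the shorter astrocyte list were at between 4.02 and 4.77 CPM in PKM2FL/FL and at 11.9, 14.2 and 3.91 CPM in PKM2ΔMAC. Most of the sums of PKM2FL/FL and of PKM2ΔMAC replicate 3 came from Slc4a4. It was at 4.40, 4.41 and 3.60 CPM in PKM2FL/FL and at 4.24, 4.64 and 3.71 CPM in PKM2ΔMAC. Summed neuron markers were at between 0.880 and 1.32 CPM in PKM2FL/FL and at 4.60, 8.09 and 0.947 CPM in PKM2ΔMAC. Summed oligodendrocyte markers, carried by Mbp, which was abundant in every library, were at between 127 and 138 CPM against 127, 143 and 112 CPM. In PKM2ΔMAC replicate 3, 6 of the 9 neuron genes and 3 of the 6 astrocyte genes, Gfap, Aqp4 and Mlc1, were at 0.

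Slc1a3 differed from these markers in replicate 3, where it had 164 counts and stood 1.5 above the PKM2FL/FL mean on the scale of log2(CPM + 0.1). In replicates 1 and 2 it stood 2.01 and 2.31 above that mean. Without replicates 1 and 2 the log2 fold change was 1.58 (SE 0.27), with a single PKM2ΔMAC library whose spread is taken from the other genotype, and when each library was left out in turn it lay between 1.86 and 2.26. How much of the Slc1a3 signal of replicates 1 and 2 came with the brain transcripts was not tested. The panels of Slc1a3 beside brain transcripts show both patterns.

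**Figure D2:**
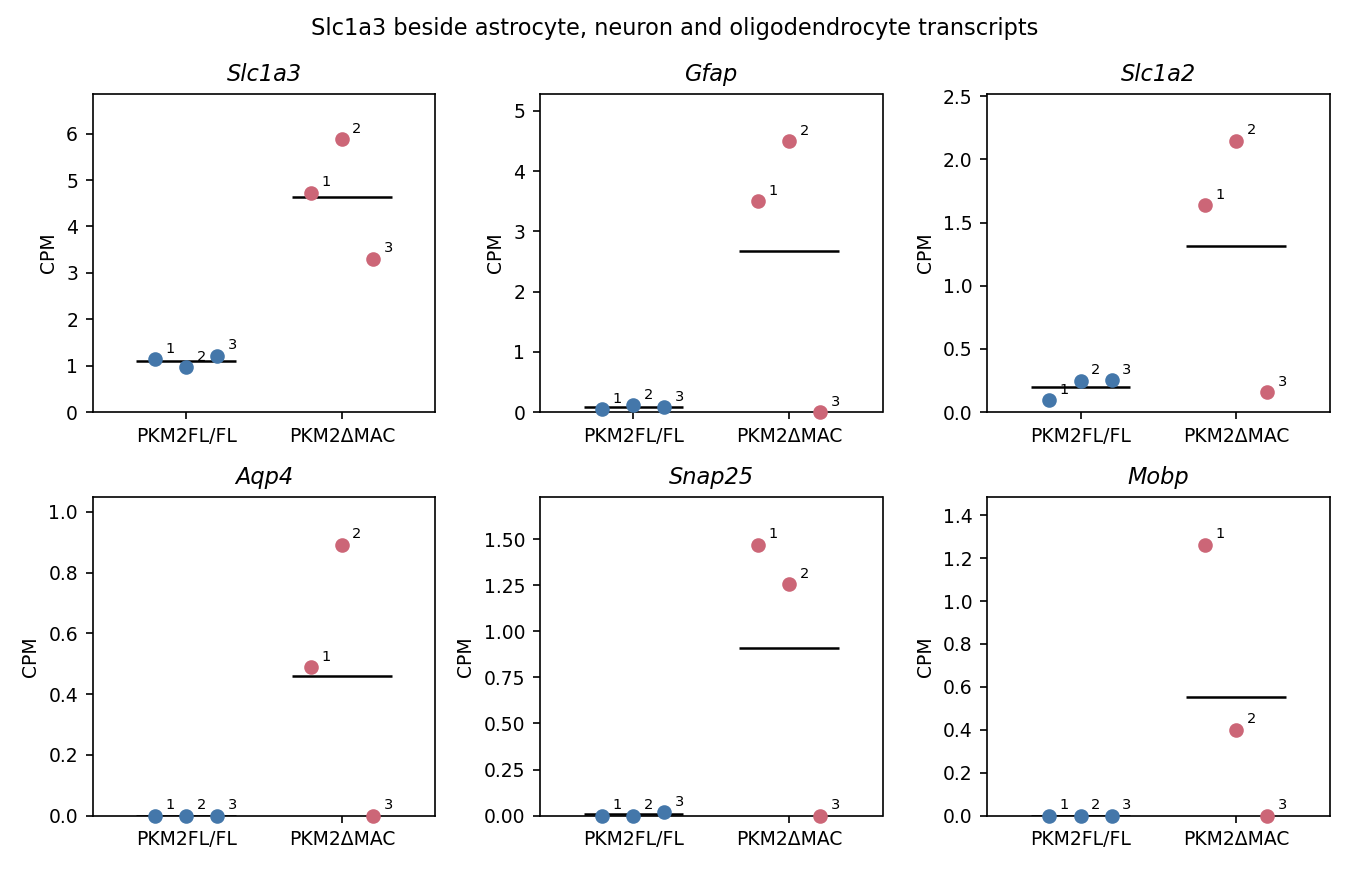
CPM (vertical axes, each starting at 0) of Slc1a3, of the astrocyte genes Gfap, Slc1a2 and Aqp4, of the neuron gene Snap25 and of the oligodendrocyte gene Mobp in each library, with replicate numbers and a bar at each mean (PKM2FL/FL blue, PKM2ΔMAC red). The marker genes are high in PKM2ΔMAC replicates 1 and 2 only, whereas Slc1a3 is at 3.30 CPM in replicate 3, above all PKM2FL/FL libraries.

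The other 8 members changed little, and 0 of 8 passed the quasi-likelihood test of edgeR at a Benjamini-Hochberg adjusted p under 0.05. Over all 16516 genes 68 passed, or 0.412%, of which 47 were higher in PKM2ΔMAC (0.285%) and 21 were lower (0.127%), a share at which 0 of 8 is near the background. At an unadjusted p under 0.05 stood Slc1a5 and Slc7a2, 2 of 8 beside 9.83% of all genes, and DESeq2 passed 0 of the 8 beside 1.83% of all genes. Libraries of the genotypes did not overlap for Slc1a5 alone among the 8, against 17.2% of all genes tested (8.92% with PKM2ΔMAC higher and 8.32% with PKM2ΔMAC lower). The plot of fold changes by gene sets the 8 beside Slc1a3.

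**Figure D3:**
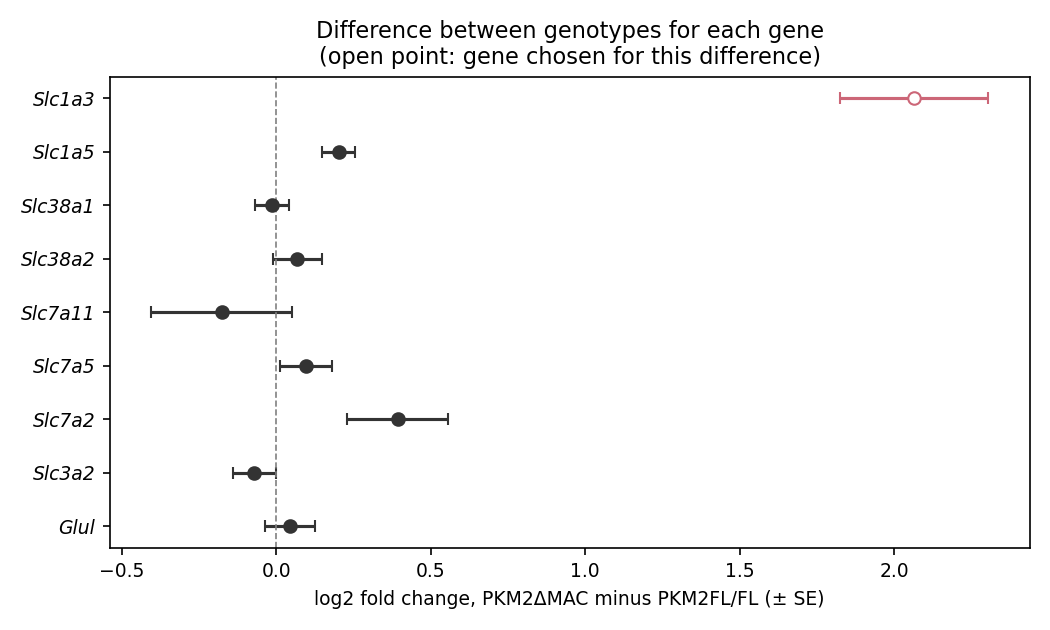
Log2 fold change of PKM2ΔMAC over PKM2FL/FL (horizontal axis, points, with bars of 1 SE from the edgeR fit) for each gene, with the dashed line at no difference. The open point, Slc1a3 at 2.06, was chosen for this difference, and the other 8 lie between -0.18 (Slc7a11) and 0.39 (Slc7a2).

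Among the glutamine importers Slc1a5 was slightly higher in PKM2ΔMAC. Slc1a5 (chr7:16781340-16798274, plus strand, GRCm38) was at 50.9, 50.5 and 46.1 CPM in PKM2FL/FL and at 55.5, 59.0 and 55.1 CPM in PKM2ΔMAC. Each PKM2ΔMAC library lay above each PKM2FL/FL library, by a mean of 1.15-fold (95% interval from 1.06 to 1.25). The log2 fold change of 0.20 (SE 0.053) had an unadjusted p of 0.00477 and an edgeR adjusted p of 0.246, and the two-sided exact permutation test gave p = 0.10, the smallest that 3 libraries against 3 allow. Slc38a1 (chr15:96571418-96642913, minus strand) was at 117, 107 and 112 CPM in PKM2FL/FL and at 118, 108 and 106 CPM in PKM2ΔMAC, with interleaved libraries and a ratio of 0.990 (95% interval from 0.908 to 1.08, edgeR adjusted p = 0.962). Its neighbour Slc38a2 (chr15:96687392-96699730, minus strand), whose transcript is known to be induced when amino acids are scarce, was at 281, 283 and 288 CPM against 287, 338 and 268 CPM. PKM2ΔMAC replicate 2 was the highest and replicate 3 the lowest of all 6, and the ratio was 1.05 (95% interval from 0.922 to 1.192, edgeR adjusted p = 0.839).

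The cystine and glutamate exchanger gene Slc7a11 varied more between replicates than between genotypes. Slc7a11 (chr3:49892526-50443614, minus strand) was at 20.9, 14.8 and 21.7 CPM in PKM2FL/FL and at 19.6, 12.3 and 19.0 CPM in PKM2ΔMAC. Replicate 2 was the lowest library of each genotype, and the ratio of 0.884 had a 95% interval from 0.601 to 1.30 (log2 fold change -0.18, SE 0.23, edgeR adjusted p = 0.854). Its spread within PKM2FL/FL, an SD of 0.303 on the log2 scale, was larger than that of 82.9% of the genes tested. The promoter of Slc7a11 (GRCm38.p6, chr3:50443564-50443863, minus strand) is shown because a pair of TGATGNAA matches on opposite strands falls inside the window. They begin 66 and 47 bases before the start and are in capitals, as is a TTCNNNGAA match at 183 bases.

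Slc7a11 promoter: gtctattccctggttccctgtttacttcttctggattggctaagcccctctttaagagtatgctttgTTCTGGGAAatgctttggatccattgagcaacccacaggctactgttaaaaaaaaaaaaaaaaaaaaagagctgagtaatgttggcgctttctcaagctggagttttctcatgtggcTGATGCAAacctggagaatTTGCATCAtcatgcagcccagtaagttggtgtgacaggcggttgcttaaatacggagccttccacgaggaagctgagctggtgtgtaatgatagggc

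RefSeq windows were found for 5 members, Glul, Slc7a11, Slc1a3, Slc38a2 and Slc3a2, and the remaining match among them was a TGACNNNGC 27 bases before the start of Slc38a2. Atf4 itself was at 150, 148 and 143 CPM in PKM2FL/FL and at 142, 149 and 141 CPM in PKM2ΔMAC (log2 fold change -0.03, SE 0.040, edgeR adjusted p = 0.856).

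Slc7a5 and the heavy chain Slc3a2, which together form the leucine exchanger, did not differ beyond their spread. Slc7a5 (chr8:121881150-121907694, minus strand) was at 24.7, 27.1 and 21.6 CPM in PKM2FL/FL and at 26.1, 27.0 and 25.3 CPM in PKM2ΔMAC, with a ratio of 1.07 (95% interval from 0.936 to 1.22, edgeR adjusted p = 0.777). Slc3a2 (chr19:8706882-8723369, minus strand) was at 204, 199.8 and 197 CPM against 190.2, 171 and 210.1 CPM. PKM2FL/FL libraries were close together, while PKM2ΔMAC libraries lay on both sides of them, and the ratio was 0.952 (95% interval from 0.853 to 1.06, edgeR adjusted p = 0.80). Set against the light chains with which it pairs (Slc7a5, Slc7a6, Slc7a7, Slc7a8 and Slc7a11, summed TPM), Slc3a2 stood at a ratio of 1.28, 1.17 and 1.26 in PKM2FL/FL and 0.984, 0.809 and 0.965 in PKM2ΔMAC. This summed ratio was lower in every PKM2ΔMAC library, and no ratio was tested. Against Slc7a5 alone the TPM ratio of Slc3a2 was 8.66, 7.75 and 9.59 in PKM2FL/FL and 7.65, 6.67 and 8.71 in PKM2ΔMAC. Against Slc7a11 alone it was 38.4, 53.2 and 35.8 in PKM2FL/FL and 38.3, 54.9 and 43.7 in PKM2ΔMAC. The genotypes overlapped in both ratios to a single light chain. Of those light chains, Slc7a7 and Slc7a8 had the highest TPM and are described with the lists.

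The arginine importer gene Slc7a2 had the largest difference of the 8. Slc7a2 (chr8:40862396-40922308, plus strand) was at 18.9, 15.03 and 17.3 CPM in PKM2FL/FL and at 23.3, 17.4 and 26.5 CPM in PKM2ΔMAC. Replicates 1 and 3 of PKM2ΔMAC were above all PKM2FL/FL libraries, and replicate 2 lay among them. The log2 fold change was 0.39 (SE 0.16), a ratio of 1.31 with a 95% interval from 1.00 to 1.72, at an unadjusted p of 0.0475 and an edgeR adjusted p of 0.502. Whether Slc7a2 passed depended on the libraries used. Without PKM2ΔMAC replicate 3 the log2 fold change was 0.25 (edgeR adjusted p = 0.589). Without PKM2ΔMAC replicate 2, where 299 genes passed in all, the log2 fold change was 0.55 (SE 0.098, edgeR adjusted p = 0.0200). With a single PKM2ΔMAC library, after replicates 1 and 2 were left out, it was 0.64. The stromal marker Dcn ran alongside, at 22.7, 12.9 and 14.5 CPM in PKM2FL/FL and 28.2, 5.39 and 45.4 CPM in PKM2ΔMAC, and was picked after its values were seen. Within PKM2ΔMAC, Col1a1, Col1a2, Pdgfra, Lum and Cxcl12 shared its order, replicate 2 lowest and replicate 3 highest, while Col3a1, at 884, 701 and 721 CPM, and Pdgfrb did not. In PKM2FL/FL, Dcn and Slc7a2 were highest in replicate 1 and lowest in replicate 2. No other stromal marker of the list had that order there. Col3a1 and Cxcl12 were not higher in PKM2ΔMAC on average. The summed stromal markers, led by Col1a1 and Col1a2, were at 6083, 6444 and 5878 CPM against 7085, 5623 and 7141 CPM, and their part in the Slc7a2 values was not tested. Nos2, which uses arginine, was at 0.490 CPM or less in every library.

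Glul, the enzyme that makes glutamine, was the most abundant member and did not differ between the genotypes beyond its spread. Glul (chr1:153899944-153909723, plus strand) was at 241, 249.8 and 263 CPM in PKM2FL/FL and at 267, 226 and 283 CPM in PKM2ΔMAC. The ratio was 1.03 (95% interval from 0.903 to 1.18, edgeR adjusted p = 0.912). Teddm2, which overlaps Glul on the opposite strand, had on average 0.335 CPM in PKM2FL/FL libraries and 0.211 CPM in those of PKM2ΔMAC.

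Compared per length, the members kept one order in both genotypes. In PKM2FL/FL mean TPM was 233 ± 11.1 for Glul, 199 ± 3.59 for Slc3a2, 112 ± 2.05 for Slc38a2 and 41.3 ± 2.40 for Slc1a5 (SD, n = 3). Then followed Slc7a5 at 23.1 ± 2.82 and Slc38a1 at 22.7 ± 0.769 TPM, whose libraries overlapped and which cannot be ordered, Slc7a2 at 6.53 ± 0.664, Slc7a11 at 4.81 ± 0.902 and Slc1a3 at 0.454 ± 0.050 TPM. All other neighbours in this order were separated in each genotype. In PKM2ΔMAC Slc1a3 was still the lowest, at 2.01 ± 0.618 TPM, below Slc7a11 at 4.46 ± 0.949 TPM. Its share of the summed TPM of Slc1a3 and Slc1a5 went from between 0.922% and 1.28% to between 2.85% and 4.65%, and Slc1a5 remained between 20.5 and 34.1 times more abundant in PKM2ΔMAC.

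The wider pathway was read through 11 lists of transporters, enzymes, receptors and sensors, which besides Slc1a3 held 134 tested genes. None of the 134 passed the edgeR test (background 0.412%), and DESeq2, which passed 1.83% of all genes, passed 5 of them, Slc1a2, Slc7a7, Got1, Ppp1r15a and Rragc. At an unadjusted p under 0.05 stood 21 of the 134, or 15.7%, against 9.83% of all genes tested. Genotypes did not overlap for 27 of them, 10 higher and 17 lower in PKM2ΔMAC, or 20.1% against 17.2% over all genes. The median log2 fold change was 0.01 over the 134 and -0.00021 over all genes. The 3 genes of highest mean TPM in each list, 33 in all, lay between -0.67 (Slc1a6) and 0.87 (Slc7a7), and the smallest edgeR adjusted p among them was 0.178 (Rragc). Genes named from the lists below their highest-expressed 3 were picked after their values were seen.

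**Figure D4:**
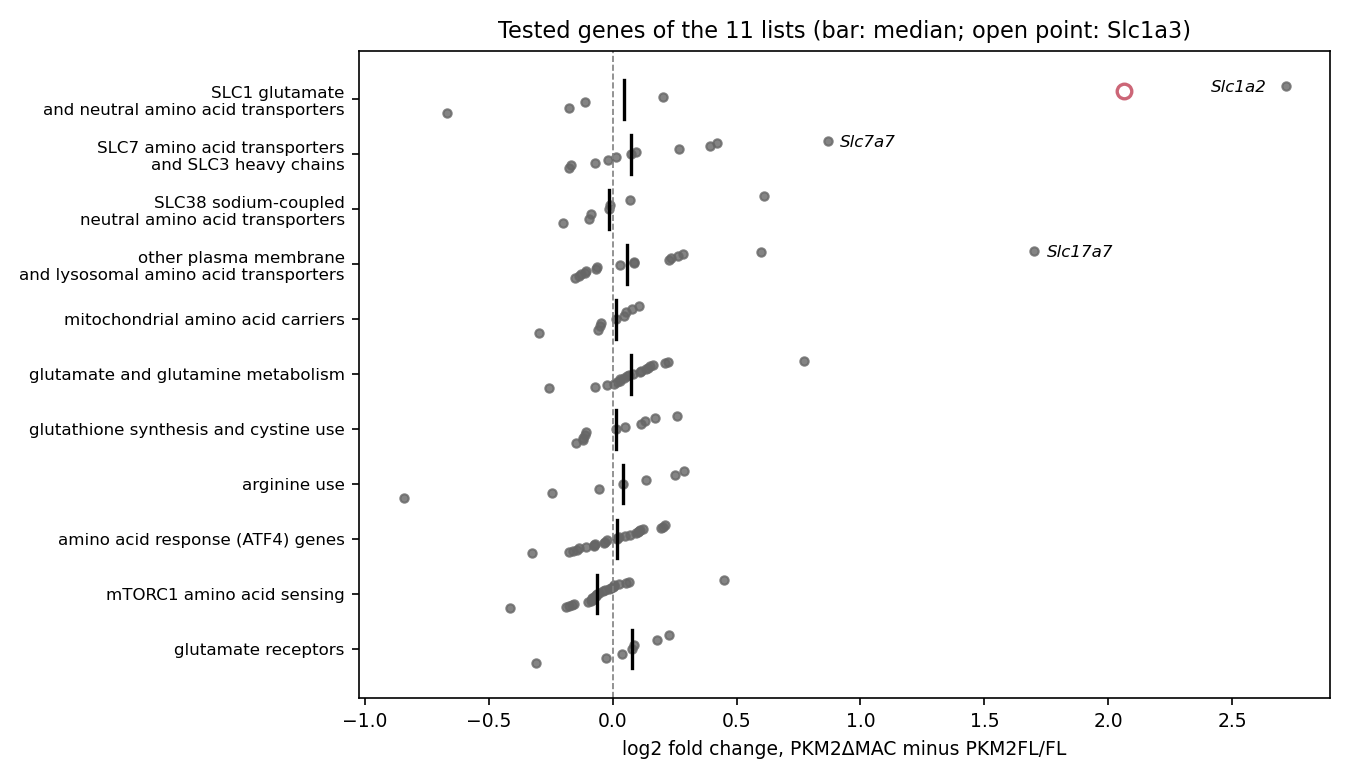
Log2 fold change of PKM2ΔMAC over PKM2FL/FL (horizontal axis) of every tested gene of the 11 lists, 1 row per list, with a black bar at the median of the list and an open red point for Slc1a3. The medians lie between -0.06 and 0.08, and Slc1a3 and Slc1a2 are the points farthest to the right.

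Of the 6 tested SLC1 genes, 3 were higher and 3 lower in PKM2ΔMAC. The neutral amino acid exchanger gene Slc1a4 was at between 26.7 and 30.3 CPM against between 22.7 and 27.6 CPM (log2 fold change -0.11, SE 0.089, edgeR adjusted p = 0.756). Slc1a6, a glutamate transporter known from Purkinje cells, was at 4.05, 2.96 and 3.03 CPM against 2.37, 2.44 and 1.49 CPM (log2 fold change -0.67, SE 0.23, edgeR adjusted p = 0.394), so that all its PKM2ΔMAC libraries were below those of PKM2FL/FL. Slc1a2, which followed the brain transcripts, had a log2 fold change of 2.72 (SE 0.92, edgeR adjusted p = 0.416), which turned to -0.30 without PKM2ΔMAC replicates 1 and 2. DESeq2 put Slc1a2 at an adjusted p of 0.0283, and edgeR without PKM2ΔMAC replicate 3 at 0.0159. With any other single library left out the edgeR adjusted p of Slc1a2 was between 0.384 and 0.762.

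In the SLC7 and SLC3 list 7 of 11 tested genes were higher, with a median log2 fold change of 0.07. Slc7a7, the light chain that exports arginine in exchange for neutral amino acids, was at 32.6, 33.1 and 31.4 CPM in PKM2FL/FL and at 51.6, 50.2 and 75.6 CPM in PKM2ΔMAC. The genotypes did not overlap, yet with replicate 3 far above the other PKM2ΔMAC libraries the log2 fold change of 0.87 (SE 0.17) had an edgeR adjusted p of 0.199. Without replicate 3 the log2 fold change was 0.65 at an edgeR adjusted p of 0.00148. With any other single library left out the edgeR adjusted p was between 0.148 and 0.629. DESeq2 on all libraries gave an adjusted p of 1.37e-06. Slc7a8, a neutral amino acid light chain, was at between 93.4 and 109 CPM against 109, 138 and 113 CPM (log2 fold change 0.27, SE 0.10, edgeR adjusted p = 0.472). Without PKM2ΔMAC replicate 2 the log2 fold change of Slc7a8 was 0.16.

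Transporters outside these families did not pass the edgeR test. The widest differences were those of scarce genes, the vesicular glutamate transporter gene Slc17a7 with 14, 16 and 14 counts in PKM2FL/FL against 46, 100 and 3 counts in PKM2ΔMAC (log2 fold change 1.70, SE 0.94, edgeR adjusted p = 0.624), which followed the brain transcripts, and Slc38a4 at between 0.712 and 0.899 CPM against 1.2, 1.71 and 0.725 CPM (log2 fold change 0.61, SE 0.33, edgeR adjusted p = 0.604). The most abundant of all was the taurine transporter gene Slc6a6, at 636 TPM in PKM2FL/FL and 683 TPM in PKM2ΔMAC (log2 fold change on counts 0.03, SE 0.051, edgeR adjusted p = 0.893). Slc43a2, a carrier of large neutral amino acids, was at between 604 and 611 CPM against between 537 and 563 CPM (log2 fold change -0.15, SE 0.040, edgeR adjusted p = 0.233), with all PKM2ΔMAC libraries lower. Slc38a10 was at 123 TPM in PKM2FL/FL and 128 TPM in PKM2ΔMAC, Slc38a7 at 59.3 and 58.5 TPM, and the lysosomal histidine and peptide carrier gene Slc15a3 at 150.3 and 150.6 TPM. On counts the log2 fold changes of these 3 were -0.0096 (SE 0.036), -0.094 (SE 0.047) and -0.064 (SE 0.25). The leading mitochondrial carrier genes were Slc25a44 (42.8 and 43.3 TPM), the glycine carrier gene Slc25a38 (22.7 and 23.1 TPM) and the aspartate and glutamate carrier gene Slc25a12 (19.7 and 21.5 TPM). Log2 fold changes on counts were -0.060 (SE 0.050), -0.049 (SE 0.080) and 0.053 (SE 0.049) in the same order. Of the SLC38 genes 2 of 7 were higher, of the other plasma membrane and lysosomal transporters 9 of 16 and of the mitochondrial carriers 5 of 9.

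Of the 20 tested genes of glutamate and glutamine metabolism 17 were higher and 3 lower (median log2 fold change 0.07), and 0 passed the edgeR test. Genotypes did not overlap for 7 of the 20, beside 17.2% of all genes tested, and 6 of the 7 were higher in PKM2ΔMAC, beside 8.92%. Its most abundant genes besides Glul were Glud1, the glutamate dehydrogenase, at a mean of 296 TPM in PKM2FL/FL and 312 TPM in PKM2ΔMAC, and the ornithine aminotransferase gene Oat at 204 and 217 TPM. On counts their log2 fold changes were only 0.0056 (SE 0.040) and 0.016 (SE 0.038). Got1, the cytosolic aspartate aminotransferase, went the other way, at 61.0, 56.3 and 58.5 CPM in PKM2FL/FL and 49.6, 50.2 and 47.2 CPM in PKM2ΔMAC. Its log2 fold change of -0.26 (SE 0.048) had an edgeR adjusted p of 0.0838, and DESeq2 gave an adjusted p of 0.00792. Got1 also passed in edgeR without PKM2ΔMAC replicate 2 (adjusted p = 0.0208), where 299 genes passed in all. With any other single library left out the edgeR adjusted p of Got1 was between 0.147 and 0.394. Cad and Ppat, which take glutamine nitrogen into pyrimidines and purines, had log2 fold changes of 0.15 (SE 0.045, edgeR adjusted p = 0.329) and 0.22 (SE 0.069, edgeR adjusted p = 0.341), each without overlap between the genotypes. Of 11 tested genes of glutathione synthesis and cystine use 6 were higher. Gpx4, the peroxidase that protects membrane lipids, was at 314 and 304 TPM, and the glutathione reductase gene Gsr at 95.9 and 101.8 TPM. Their log2 fold changes on counts were -0.12 (SE 0.076) and 0.013 (SE 0.037). Higher genes included Gclm, the modifier subunit of the first enzyme of glutathione synthesis, at between 104 and 116 CPM against 112, 162 and 122 CPM (log2 fold change 0.26, SE 0.15, edgeR adjusted p = 0.639). Without PKM2ΔMAC replicate 2 the log2 fold change of Gclm was 0.086.

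Users of arginine split, with 4 of 7 tested genes higher. Azin1, an activator of polyamine synthesis, had a log2 fold change of 0.14 (SE 0.065, edgeR adjusted p = 0.542). The ornithine decarboxylase gene Odc1 was at 52.7 TPM in PKM2FL/FL and 57.0 TPM in PKM2ΔMAC, and the argininosuccinate lyase gene Asl at 32.6 and 33.0 TPM. Their log2 fold changes on counts were 0.040 (SE 0.046) and -0.056 (SE 0.047). Gatm, the first enzyme of creatine synthesis, was at between 26.9 and 27.5 CPM against between 20.7 and 24.6 CPM (log2 fold change -0.24, SE 0.073, edgeR adjusted p = 0.328). Gatm was thus lower in each PKM2ΔMAC library than in any PKM2FL/FL library. Its log2 fold change was -0.17 without PKM2ΔMAC replicate 3. Without replicates 1 and 2, which leaves a single PKM2ΔMAC library, it was -0.40.

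The amino acid response genes of ATF4 were evenly divided, 13 higher and 12 lower, at a median log2 fold change of 0.02. Genotypes did not overlap for 7 of the 25, beside 17.2% of all genes tested, with 5 higher in PKM2ΔMAC (8.92% of all genes) and 2 lower (8.32%). Besides Atf4, the transcription factor genes Atf3 (381 TPM in PKM2FL/FL and 403 TPM in PKM2ΔMAC) and Cebpb (229.3 and 228.8 TPM) led this list. Log2 fold changes on counts were 0.016 (SE 0.23) for Atf3 and -0.075 (SE 0.063) for Cebpb. Ppp1r15a, which restarts translation after stress, was at 35.7, 36.6 and 35.3 CPM against 28.8, 26.6 and 30.5 CPM (log2 fold change -0.33, SE 0.061, edgeR adjusted p = 0.0864). DESeq2 gave it an adjusted p of 0.00461, and edgeR without PKM2ΔMAC replicate 2, where 299 genes passed in all, gave 0.0349. With any other single library left out the edgeR adjusted p of Ppp1r15a was between 0.0532 and 0.443. Of 26 tested genes of amino acid sensing by mTORC1, 19 were lower and 7 higher (median log2 fold change -0.06), and 7 were without overlap, all lower, or 7 of 26 beside 8.32% of all genes tested. Rragc, one of the Rag GTPases that recruit mTORC1 to the lysosome, was at between 249 and 254 CPM in PKM2FL/FL and between 219 and 228 CPM in PKM2ΔMAC (log2 fold change -0.16, SE 0.037, edgeR adjusted p = 0.178, and 0.0366 in DESeq2). The leucine sensor family gene Sesn1 was at 200.05 and 199.4 TPM, and the folliculin partner gene Fnip2 at 181 and 168 TPM. On counts Sesn1 had a log2 fold change of -0.076 (SE 0.048) and Fnip2 of -0.18 (SE 0.11).

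Few glutamate receptor genes were expressed, 7 of the 21 in the tables passing the filter. The highest was the AMPA receptor subunit gene Gria3 at a mean of 4.59 TPM in PKM2FL/FL and 4.97 TPM in PKM2ΔMAC, followed by Grik5 at 2.47 and 2.10 TPM and Grin2d at 1.72 and 1.77 TPM. On counts their log2 fold changes were 0.037 (SE 0.20), -0.31 (SE 0.16) and -0.026 (SE 0.19). Several of the untested ones followed the brain transcripts, such as Gria1 with 0, 0 and 1 counts in PKM2FL/FL and 16, 28 and 0 counts in PKM2ΔMAC, and Grin2b with 0, 0 and 3 against 19, 22 and 0 counts. Reads of Gria1 and Grin2b in PKM2ΔMAC replicates 1 and 2 were thus not matched in replicate 3.

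No chromosomal neighbour of Slc1a3 passed the test. Of the 10 nearest tested genes on each side, between positions 6813577 and 10714624 of chromosome 15, 0 of 20 passed the edgeR test (background 0.412%), 0 had an unadjusted p under 0.05 and DESeq2 also passed 0. In all, 11 were higher and 9 lower, and the median log2 fold change was 0.01. On the lower-coordinate side the nearest were the predicted genes Gm2310 (0.24, SE 0.46) and Gm49249 (0.20, SE 0.35) and the cohesin loader gene Nipbl (0.00084, SE 0.034). On the other side they were Ranbp3l (1.70, SE 0.93, edgeR adjusted p = 0.621), the mitochondrial NAD kinase gene Nadk2 (-0.01, SE 0.065) and Skp2 (0.13, SE 0.083), a subunit of an SCF ubiquitin ligase. Ranbp3l was scarce, with mean CPM of 0.254 for PKM2FL/FL and 0.832 for PKM2ΔMAC, and its libraries overlapped. The plot of neighbours by distance gives all 20.

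**Figure D5:**
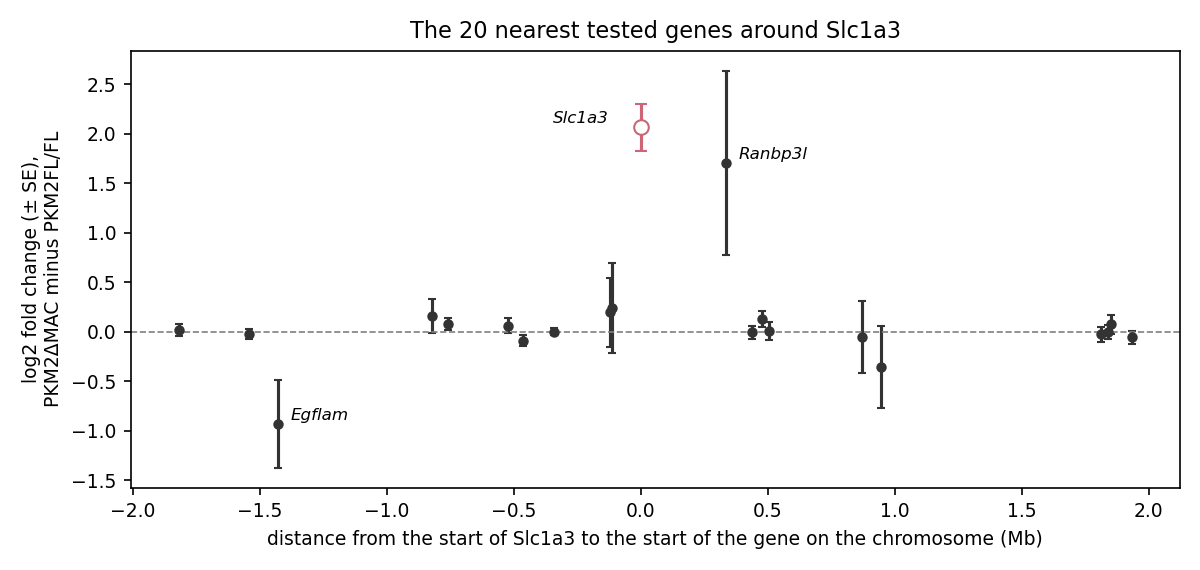
Log2 fold change of PKM2ΔMAC over PKM2FL/FL (vertical axis, bars of 1 SE) of the 20 nearest tested genes against the distance of their start from that of Slc1a3 in Mb, with Slc1a3 as the open red point at 0. All neighbours other than Ranbp3l (1.70) and Egflam (-0.93) lie between -0.36 and 0.24.

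The genes whose pattern over the 6 libraries was most like that of Slc1a3 were taken by the root mean square difference of log2(CPM + 0.1), each relative to its own PKM2FL/FL mean. Among 13078 genes compared, with a median difference of 1.40, the closest were Slc13a3 (0.268), Map2 (0.329), Rab4a (0.397), Cadm1 (0.409) and Ppp1r14c (0.442). Slc13a3, a sodium-coupled carrier of dicarboxylates such as succinate, was at 2.40, 2.21 and 1.77 CPM in PKM2FL/FL and 7.20, 13.6 and 5.40 CPM in PKM2ΔMAC. Like Slc1a3 it was highest in replicate 2 and lowest in replicate 3. Map2, a dendrite protein of neurons, was at 0.936, 0.500 and 0.630 against 2.39, 3.15 and 1.41 CPM. Rab4a, an endosome GTPase, was at 3.58, 3.08 and 2.36 against 8.69, 10.1 and 10.4 CPM, and Cadm1, an adhesion protein, at 185, 171 and 180.5 against 480, 513 and 535 CPM. Rab4a and Cadm1 were thus no lower in replicate 3 than in replicates 1 and 2, unlike Slc1a3. Ppp1r14c, an inhibitor of protein phosphatase 1, was at 0.412, 0.423 and 0.551 against 1.66, 1.64 and 2.54 CPM. These 5 were found by their likeness in the same libraries, so no test is given.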

How the data were processed

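For each gene symbol the authors deposited unnormalized counts and TPM values in the same 6 libraries. FastQC 0.12.1, Trim Galore 0.6.10, HISAT2 2.2.1, SAMtools 1.19.2, Subread 2.0.6 and the mm10 build are named in the submitters' processing notes. Annotation and strand setting are not given in the sources used here. Table columns were matched to libraries by genotype and mouse number, and 0 were left unmatched.

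Counts were compared with edgeR 4.0.16 (R 4.3.3) by quasi-likelihood with robust estimation, TMM scaling, filterByExpr and genotype as the only term, at a Benjamini-Hochberg adjusted p under 0.05. With total counts of at least 49957449, 3 counts correspond to between 0.0546 and 0.0604 CPM. Single genes were also put through two-sided exact permutation tests of log2(CPM + 0.1). The alternatives included RLE and upper-quartile scaling, DESeq2 1.42.0, other filters, a replicate block, limma-trend (limma 3.58.1) on log2 TPM and each library left out. Leaving out PKM2ΔMAC replicates 1 and 2 together was added after the data were seen. The functions were tested on simulated data.

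The members and lists were chosen with earlier results of these data known. Named genes are the members, Pkm, the genes past the threshold and the 3 of highest TPM of each list, the 3 nearest tested genes on each side of Slc1a3 and the 5 of most similar pattern, and others are marked in the text. Some genes of the lists are not reported here. Positions came from GENCODE M21 (GRCm38) and promoters from RefSeq, matched by symbol. That replicates came from separate mice rests on their labels.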

Additional observations from a re-analysis of the deposited data

How the results depend on the processing

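Over 16 alternatives, 114 of the 128 values of the 8 members other than Slc1a3 kept their direction and their side of the threshold. A further 12 changed sign, and 2, both for Slc7a2, moved past the threshold. The value without PKM2ΔMAC replicates 1 and 2 is among those for Slc7a2 and rests on a single PKM2ΔMAC library. Without PKM2ΔMAC replicate 2 the log2 fold change of Slc7a11 was 0.010, of Slc3a2 0.0013, of Slc38a1 0.0048 and of Slc38a2 -0.032. Without PKM2ΔMAC replicates 1 and 2, that of Slc3a2 was 0.072, of Slc38a2 -0.081 and of Slc1a2 -0.30. Without PKM2ΔMAC replicate 3, Slc38a1 was at 0.018 and Glul at -0.026, and without PKM2FL/FL replicate 1 Slc38a1 was at 0.019. Slc7a5 was at 0.012 without PKM2FL/FL replicate 3 and at 0.18 without PKM2FL/FL replicate 2. On TPM (pseudocount 1, also unfiltered, then 0.1), Slc38a1 was at 0.055 and 0.057 and Atf4 at 0.042 and 0.042. Over the alternatives the median log2 fold change of all genes lay up to 0.067 from 0, which is more than these TPM values. With 1 library, or PKM2ΔMAC replicates 1 and 2 together, left out, the other ends of the ranges were -0.33 for Slc7a11, -0.15 for Slc3a2, -0.080 for Slc38a1, 0.14 for Slc38a2, 0.17 for Glul and 3.23 for Slc1a2. The log2 fold change of Slc1a3 was 1.03 on log2(TPM + 1), with or without a filter, where low genes are understated, 1.58 without PKM2ΔMAC replicates 1 and 2, and between 1.86 and 2.26 with 1 library left out.

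The number of genes called, 68, was 302 with DESeq2, 120 with no filter on low counts, 41, 36 and 34 on TPM (pseudocount 1, then unfiltered, then pseudocount 0.1), between 22 (without PKM2FL/FL replicate 3) and 299 (without PKM2ΔMAC replicate 2) with 1 library left out, and 432 without PKM2ΔMAC replicates 1 and 2, and the cause was not tested. Of the 8 members, between 0 and 1 passed with 1 library left out. Of the list genes 5 passed with DESeq2, 2 with no filter, between 0 and 3 with 1 library left out and 4 without PKM2ΔMAC replicates 1 and 2. With the replicate block 82 genes were called, of which 0 were list genes or members other than Slc1a3. Same-numbered libraries deviated from their group means with correlations of 0.080, 0.141 and 0.019. For differently numbered libraries the correlations lay between -0.124 and 0.067. Correlations this small cannot show whether the numbers pair the samples. With 50 to 62 counts in PKM2FL/FL, counting error adds to the error of Slc1a3, and in PKM2ΔMAC its spread between libraries (SD 0.411 on the log2 scale) is larger than that of 85.0% of the genes tested.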
